A study of Macaca mulatta with 64 samples.

Results

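GAP43 (ENSMMUG00000012578) and MAP1B (ENSMMUG00000017904) are genes of axon growth, and their transcription start site (TSS) positions were followed through the brain of the rhesus macaque. The members were all positions assigned to either gene, 106 for GAP43 and 242 for MAP1B, which made 348 of 160389 positions and 2 of 13269 genes. Positions were measured by cap analysis of gene expression (CAGE), which reads the 5′ ends of polyadenylated, capped RNA. There were 64 libraries, 1 for each combination of 8 regions, 4 ages (1, 4, 10 and 20 yr) and both sexes. The regions were prefrontal (PFC), posterior cingulate (PCC), temporal (TC), parietal (PC) and occipital (OC) cortex, here together called neocortex, the CA1 field (CA1) and dentate gyrus (DG) of the hippocampus, and the cortex of the cerebellum (CB). A library came from an age- and sex-matched pair of samples, so that the spread between single animals within it was not measured. The 8 regions of 1 age and sex formed an animal group, named by age and sex (1F to 20M), and gave the 8 replicates of each region. Values are TPM, the tags at a position scaled to 1000000 tags of the library.

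GAP43 encodes a membrane-bound protein of growth cones and presynaptic terminals. It binds calmodulin and is phosphorylated by protein kinase C, and it is among the classical markers of axon growth and regeneration. MAP1B encodes a microtubule-associated protein that is made as a precursor and cut into a heavy and a light chain. It is abundant in extending axons, where its phosphorylation by kinases such as GSK3 and CDK5 accompanies growth, and it persists in adult regions with plastic connections. In CAGE, a gene can have 1 sharp start or many scattered ones, and capped 5′ ends are also found inside genes, away from the annotated start.

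Some facts on the libraries bear on both genes. The libraries held about 1509000 to 6096000 tags, as judged from the step between low values, and listed 644 to 23670 positions, with a median of 4026. The 8 CA1 libraries had higher medians in both, with ranges that overlapped those of the others. Their medians were 5581500 tags and 11309 positions, against 3618500 tags and 3801 positions in the other 56. No value above 0 was under 1 TPM, so a value of 0 means only that the gene was listed at 0. Of the region labels, that of CB was checked against marker genes. The 13 listed markers of cerebellar granule and Purkinje cells summed to 2530 to 4034 TPM in CB, and to 0 to 771 TPM in the other 56 libraries. Of the 9 listed glutamatergic markers, 5 (CAMK2A, FEZF2, NEUROD6, NRGN and TBR1) were listed at 0 in all CB libraries. The rest were not, among them GRIA1, NEUROD2 and GRIN1, with CB means of 37.5, 30.7 and 20.5 TPM. The 9 summed to 0 to 273 TPM in CB and to 7.89 to 1272 TPM in the other 56 libraries, so the ranges overlapped. PROX1, a marker of dentate granule cells, was listed at 0 in all 8 DG libraries and not in all CA1 libraries. The labels of the other regions were not checked against defining markers.

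GAP43 lies on chr2:35634684-35732436 of the MMUL 1.0 build, on the plus strand, and its tags came almost entirely from the start of the gene. Positions within 500 nt of the annotated start were 61 of 106, and they held 98.8% of the gene's TPM summed over all libraries. A single position 207 nt inside the start, at base 35634891 of chromosome 2, held 74.0% of the TPM and was listed in 47 of 64 libraries. The positions 197, 221, 237 and 161 nt inside the start held 7.54%, 5.82%, 2.89% and 2.03%, in 5, 3, 1 and 1 libraries.

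In most libraries just 1 of these positions carried the gene. The leading position was at 207 nt in 47 libraries and within 155 to 237 nt in 59. The leading position of each library held a median of 93.9% of its GAP43 tags (range 40.6 to 100%, n = 64). The window from 200 to 299 nt inside the start held 83.2% of the TPM in 7 positions. Weaker positions recurred as well. The position 22 nt inside the start was listed in 24 libraries and all 8 regions with 1.67% of the TPM, and positions 89, 31 and 77 nt before it were listed in 13, 12 and 9 libraries. The 28 positions before the annotated start held 1.59% of the TPM.

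Away from the start, GAP43 had a minor interior group. It held 35 positions from 52782 to 53360 nt inside the gene and was listed in 41 libraries, 33 of them outside CA1. It gave 0.895% of the TPM, with a median of 9.2 TPM per library and a highest value of 964.6 TPM. The positions at 53328 and 52968 nt recurred most, in 15 and 11 libraries. Another 10 positions lay at 1686 to 1713 nt, 26525 nt and 97086 to 97550 nt.

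MAP1B lies on chr6:68255885-68359677, also on the plus strand, and its tags had the opposite layout. Only 11 of its 242 positions lay within 500 nt of the annotated start, with 2.07% of the TPM, and none lay before it. A zone from 88268 to 92204 nt inside the gene held 175 positions and 94.1% of the TPM, and it was listed in all 60 libraries in which MAP1B was listed. Within it, the stretch from 89301 to 89700 nt held 96 positions and 85.7% of the TPM, with a median of 86.1% per library (range 0 to 100%, n = 60). This was the stretch of 400 nt with the most TPM in the gene.

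No single position stood for MAP1B as the 207 nt position stood for GAP43. The highest one, 89413 nt inside the gene at base 68345298 of chromosome 6, held 15.0% of the TPM and was listed in 14 libraries. It was followed by 89519, 89423, 89575 and 89371 nt, with 5.66%, 5.24%, 4.71% and 3.34%. Leading positions differed between libraries, with 40 distinct ones over 60 libraries, against 12 over 64 for GAP43. The leading position lay in the main zone in 58 of 60 libraries, and near the far end of the gene, at 102765 and 103134 nt, in the other 2. The effective number of positions, the exponential of the entropy of their shares of TPM, was 57.7 for MAP1B and 3.41 for GAP43. In both genes most positions were listed in 1 library only, 69 of 106 for GAP43 and 170 of 242 for MAP1B. Of those listed in at least 8 libraries, there were 7 for GAP43 and 4 for MAP1B. Joined over all libraries where under 20 nt apart, the positions made 27 groups for GAP43 and 58 for MAP1B. Nearby positions listed in different libraries thus need not be separate start sites.

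**Figure D1:**
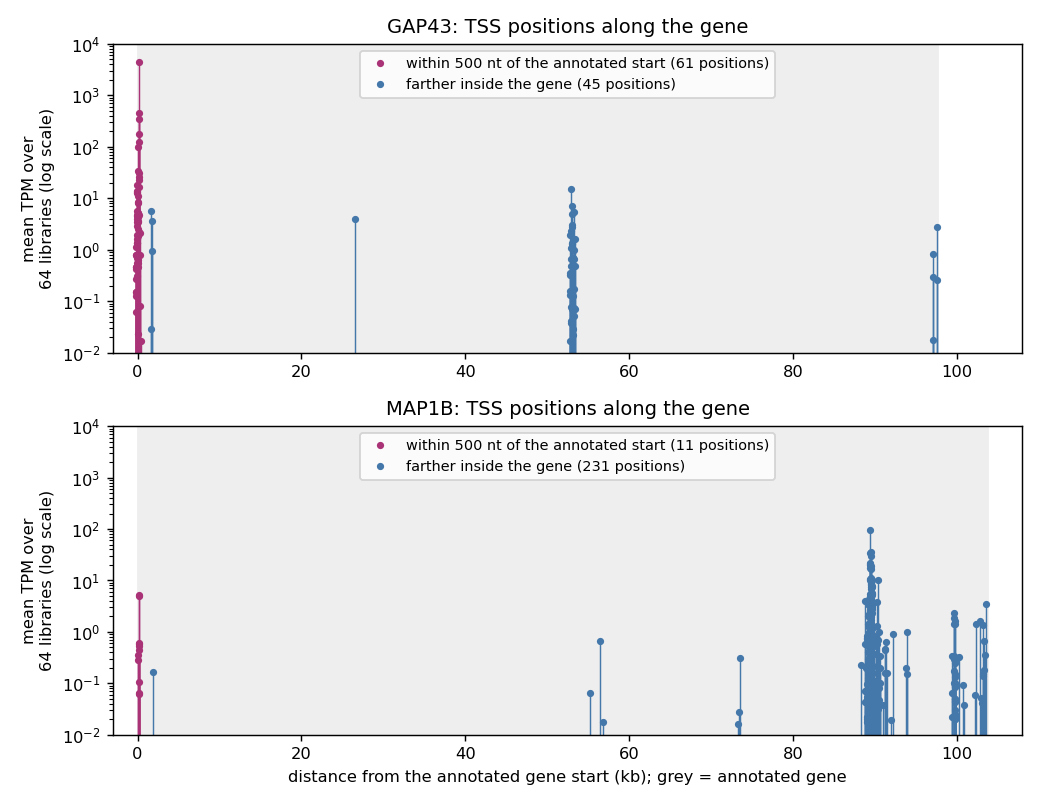
Mean TPM over 64 libraries (y axis, log scale) of each TSS position against its distance from the annotated gene start in kb (x axis) for GAP43 and MAP1B; grey marks the annotated gene and colour the positions within 500 nt of the start. GAP43 has its highest positions at the start, with 61 of 106 positions there, and MAP1B has its highest position 89413 nt inside the gene, with 11 of 242 near the start.

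**Figure D2:**
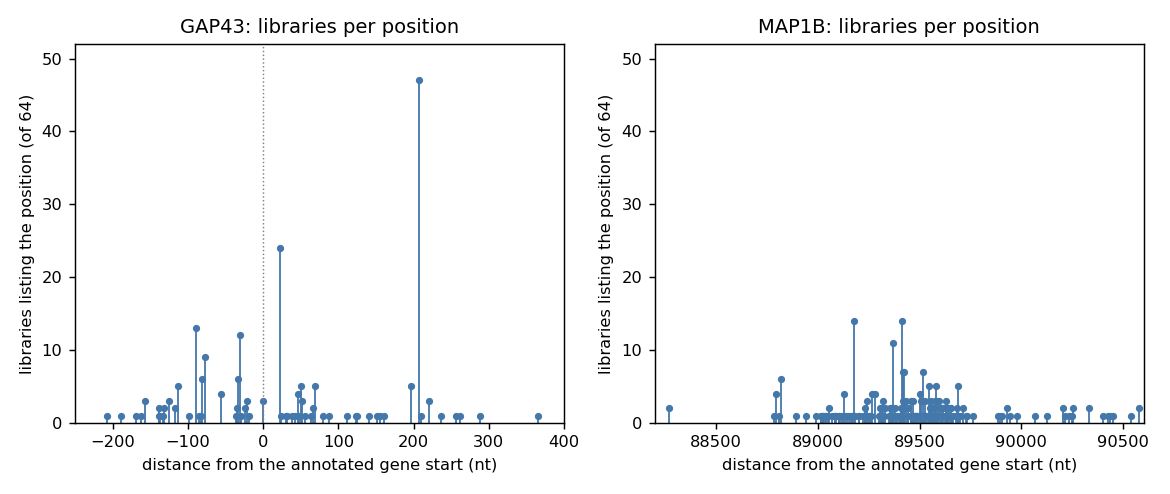
Number of libraries, of 64, that list each position (y axis) by distance from the annotated start in nt (x axis), for the start of GAP43 and the main zone of MAP1B. One GAP43 position, at 207 nt, was listed in 47 libraries, and no MAP1B position was listed in more than 14.

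The start share, the percent of a gene's TPM in a library within 500 nt of its start, was 92.7% ± 23.5 for GAP43 (SD, n = 64), with a median of 99.7%. For MAP1B it was 2.08% ± 5.78 (SD, n = 60), with a median of 0. It was over 90% for GAP43 in 59 of 64 libraries, and never for MAP1B, where the highest library reached 33.5%. The difference between the genes, as means of the 8 animal groups, was 90.6 percentage points ± 6.14 (SD, n = 8) and lay on the same side in all 8. The genes were picked with this contrast known, so it is given without a test. Among the 6106 genes listed at 1 TPM or more in at least 8 libraries, 13.8% had a higher start share than GAP43 and 27.4% a lower one than MAP1B.

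The start share of GAP43 differed between regions (F = 3.10, permutation within animal groups, adjusted p = 0.0195 over 5 tests). Outside CA1 and PFC all 48 libraries lay between 92.4 and 100%. PFC had 1 library at 0, and CA1 had 2 at 0, 1 at 12.1% and 1 at 83.9%. Without CA1 and the PFC library of 1M, an alternative chosen after the values were seen, F was 0.475 (permutation, adjusted p = 0.857). The start share of MAP1B did not pass a test between regions (F = 1.04, permutation, adjusted p = 0.463), and neither share passed between 10 and 20 yr and 1 and 4 yr (exact permutation, adjusted p = 0.381 for GAP43 and 0.886 for MAP1B).

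The start positions of MAP1B were listed in every CA1 library. All 8 held at least 1 of them, at 2.00 to 68.1 TPM, against 12 of the other 56. The CA1 mean was 32.5 TPM and that of the other libraries 10.5 TPM, which included 287 TPM in PCC 4F and 185 TPM in TC 20M. In an alternative setting that kept only start positions, MAP1B was higher in CA1 than in DG by 4.08 on the log2(TPM + 1) scale (limma, adjusted p = 0.00232). In that setting 792 genes, 24.0% of those tested, were higher in CA1, and the median of all genes was 1.41. Over all its positions MAP1B did not pass, at 1.27 (limma, adjusted p = 0.435). DG listed a start position in 1 of 8 libraries, at 2.96 TPM. The CA1 libraries also listed more positions of all genes than the DG libraries, 7001 to 23670 against 1696 to 7596, and the part of this in the result was not tested.

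The number of MAP1B positions per library was highest in CA1 as well, at 17.5 ± 4.99 (SD, n = 8), against means of 2.5 in CB to 6.88 in PFC. It differed between regions (F = 14.2, permutation, adjusted p = 1e-04 over 5 tests). This rested on CA1, since without it F was 2.34 (adjusted p = 0.123, permutation). For GAP43 the number ran from 2.38 ± 1.06 in CB to 6.75 ± 1.28 in CA1 (SD, n = 8 each), and regions differed (F = 6.27, permutation, adjusted p = 0.000125), also without CA1 (F = 4.71, permutation, adjusted p = 0.00455). GAP43 had 1.73 fewer positions per library than MAP1B (exact sign-flip test over 8 animal groups, adjusted p = 0.0521). Across the 64 libraries, the number of MAP1B positions followed the log2 number of all positions listed in the library (Pearson r = 0.81, Spearman rho = 0.85). For GAP43 the values were 0.51 and 0.55. These are descriptions over libraries that share animals.

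GAP43 was among the genes with the highest listed TPM in these libraries. Its mean of 6059 TPM was the 9th highest of 13269 genes, while MAP1B, with 640 TPM, was 127th. Tags count RNA 5′ ends and need no correction for gene length. The median gene tested had a mean of 16.4 TPM. These ranks are of listed TPM and were not checked against RNA levels in the tissue. ACTB, for example, had a mean of 5.89 TPM and was listed in 8 of 64 libraries.

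By region, GAP43 was highest in PCC, with 5758, 10064 and 12709 TPM as the lowest, median and highest of 8 libraries. TC followed with 3652, 8388 and 11060 TPM. PFC had 3.04, 8231 and 9508 TPM, and all of its libraries but 1M reached at least 5114 TPM. Below these came PC with 3680, 6665 and 8326 TPM. CB had 2440, 6038 and 7638 TPM, and DG had 1448, 4793 and 7455 TPM. OC was the lowest neocortical region, with 2371, 3656 and 5583 TPM. CA1 had 34.2, 1780 and 5722 TPM. All 8 PCC libraries were above all 8 OC libraries, while the ranges of neighbours in the order overlapped.

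GAP43 was nearly missing in 5 libraries. They were CA1 1F with 73.8 TPM, CA1 4F with 111 TPM, CA1 10M with 34.2 TPM, CA1 20F with 167 TPM and PFC 1M with 3.04 TPM. The other CA1 libraries had 5722 (1M), 4308 (4M), 3708 (10F) and 3393 TPM (20M). In the 5 low libraries no tag was listed from 155 to 237 nt inside the start, and the leading position lay at 53103, 53089, 1706 and 53328 nt inside the gene, or, in CA1 20F, 89 nt before its start. Depth was not low in them, at 3947000 to 6096000 tags. Loss of a gene of high TPM from single libraries was common in this table. Of the 57 genes with a median of at least 1000 TPM, 37 fell under 5% of their own median in at least 1 library, with a median of 2 such genes per library. TCEAL6 was low in all 5 libraries that nearly lacked GAP43. The cause was not tested, and the results that rest on CA1 or PFC 1M are given below with and without them.

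**Figure D3:**
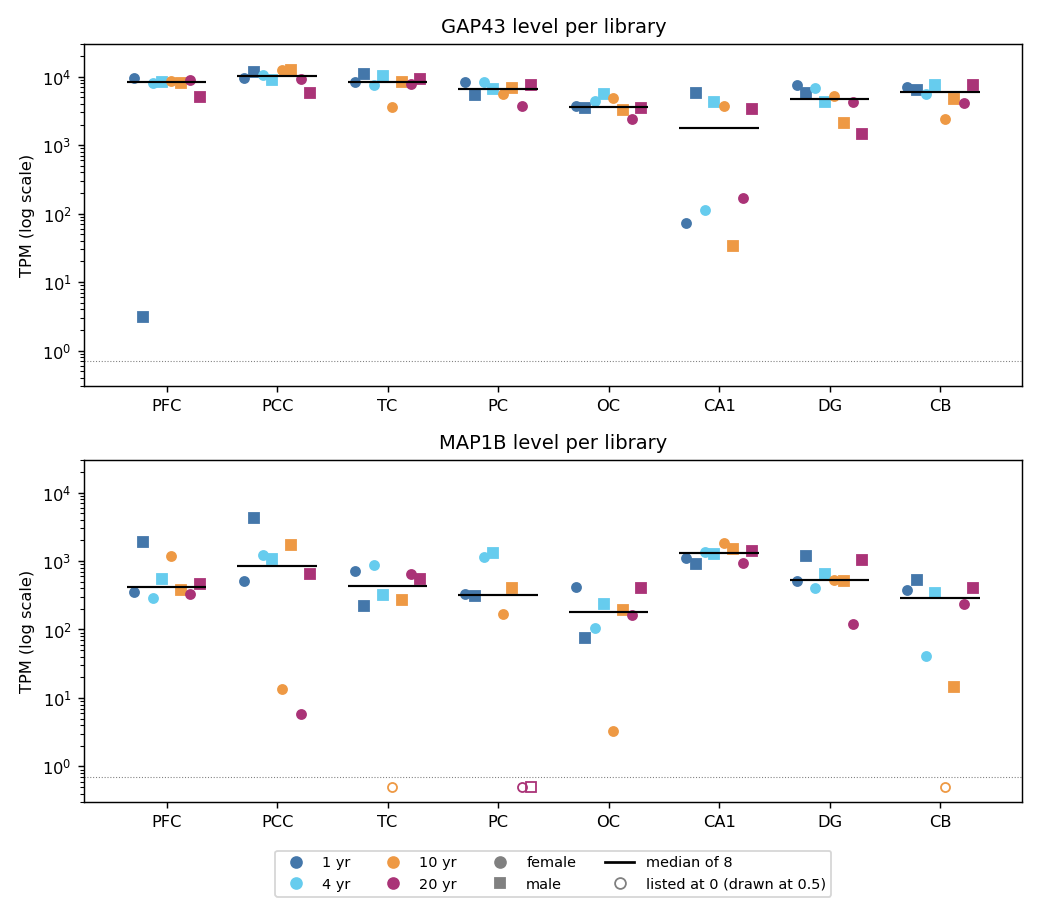
GAP43 and MAP1B in TPM (y axis, log scale) in each of 64 libraries by region (x axis); colour gives age, circles are female, squares are male, black lines are medians of 8, and open symbols drawn at 0.5 are libraries listed at 0. The 4 lowest CA1 libraries and PFC 1M have GAP43 under 170 TPM, and MAP1B spreads widely in all regions but CA1.

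Of 28 pairs of regions, GAP43 differed in 6 after adjustment over 56 tests (exact sign-flip test over 8 animal groups, adjusted p = 0.0486 for each, from p = 0.00781, the smallest the design allows). It was higher in PCC than in OC by 1.38 ± 0.50 on the log2(TPM + 1) scale, than in DG by 1.25 ± 0.72, than in CA1 by 4.06 ± 3.21 and than in PFC by 1.67 ± 3.98 (SD, n = 8). It was also higher in TC than in CB by 0.56 ± 0.25, and in PC than in OC by 0.73 ± 0.38 (SD, n = 8). All 8 animal groups had the direction in each of these pairs. The size of the PFC difference rested on 1M, without which it was 0.27 ± 0.25 (SD, n = 7). No neighbours in the order of the means passed, the closest being OC above CA1 (exact sign-flip test, n = 8, adjusted p = 0.128). Adjusted over the 42 pairs that do not include CA1, none of the GAP43 pairs passed, with 9 under an unadjusted p of 0.05, so that these calls stand close to the threshold.

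MAP1B had another order of regions. It was highest and most even in CA1, with 916, 1326 and 1810 TPM as the lowest, median and highest library. PCC had 5.78, 860 and 4319 TPM. PFC had 287, 417 and 1864 TPM, and DG 118, 523 and 1166 TPM. In these 4 regions and in OC the gene was listed above 0 in every library. PC had 0, 318 and 1324 TPM. TC had 0, 434 and 875 TPM, CB 0, 289 and 533 TPM, and OC 3.33, 178 and 421 TPM. The libraries listed at 0 were PC 20F, PC 20M, TC 10F and CB 10F.

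CA1 was above all libraries of TC, OC and CB. These were the 3 of 28 pairs that passed for MAP1B, with CA1 higher than TC by 2.56 ± 3.42, than OC by 3.38 ± 2.30 and than CB by 3.81 ± 3.47 on the log2(TPM + 1) scale (SD, n = 8; exact sign-flip test, adjusted p = 0.0486 each). The pairs with TC and CB include a library listed at 0. No pair without CA1 passed, with 4 under an unadjusted p of 0.05. Neighbours in the order did not pass, from CA1 and PCC (exact sign-flip test, n = 8, adjusted p = 0.365) to CB and OC (adjusted p = 0.702). CA1 also had the highest median number of tags and of positions of the 8 regions, and the part of this in its place was not tested. PCC, second in the order, had the lowest median number of positions.

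In the region model over all 6106 genes, GAP43 fell in hippocampus (CA1 and DG) against neocortex by 1.85 on the log2(TPM + 1) scale, with an SE of 0.45 (limma with the animal group as a block, adjusted p = 0.00504). The mean was 3429 TPM in 16 hippocampal and 7181 TPM in 40 neocortical libraries. In this comparison 17 genes were lower, 0.278% of those tested, and 501 were higher, 8.21%, and the median of all genes was 0.55. Against that median the GAP43 value was farther below. The call rested on CA1. It was also lost with CA1 kept, under quantile normalization (−1.70, limma, adjusted p = 0.0616), with the number of positions as a covariate (−1.67, adjusted p = 0.0827) and without the animal group 10M (−1.44, adjusted p = 0.0578). With CA1 left out, DG against neocortex gave −0.45 (limma, adjusted p = 0.851), and with PFC 1M also left out −0.73 (adjusted p = 0.474). MAP1B was at 1.88 with an SE of 0.68 (limma, adjusted p = 0.0666), with means of 952 TPM in hippocampus and 595 TPM in neocortex, and did not pass.

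Within hippocampus, GAP43 was at −2.80 in CA1 against DG with an SE of 0.76 (limma, adjusted p = 0.00699), with means of 2190 TPM in CA1 and 4669 TPM in DG. The exact sign-flip test of the same pair did not pass (SD 3.27, n = 8, p = 0.0859, adjusted p = 0.178), with CA1 lower in 6 of 8 animal groups. Here 55 genes were lower, 0.901% of those tested, and 1133 were higher, 18.6%, with a median of all genes of 1.37. The ranges of CA1 and DG overlapped, and 4 of 8 CA1 libraries lay within the range of DG. With the number of positions of each library as a covariate the value was −2.41 (limma, adjusted p = 0.175). MAP1B was at 1.27 with an SE of 1.14 (limma, adjusted p = 0.435), close to the median of all genes, and under the same covariate it turned to −2.27 (adjusted p = 0.362). The exact sign-flip test of this pair fell just short for MAP1B (SD 0.99, n = 8, p = 0.0156, adjusted p = 0.0583), with CA1 higher in 7 of 8 animal groups.

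Neither gene passed for CB against the other 7 regions. GAP43 was at 0.46 with an SE of 0.58 (limma, adjusted p = 0.701), and MAP1B at −1.83 with an SE of 0.86 (adjusted p = 0.369). The call was made for 49 genes as higher in CB, 0.802% of those tested, and for 64 as lower, 1.05%, with a median of all genes of −0.43.

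**Figure D4:**
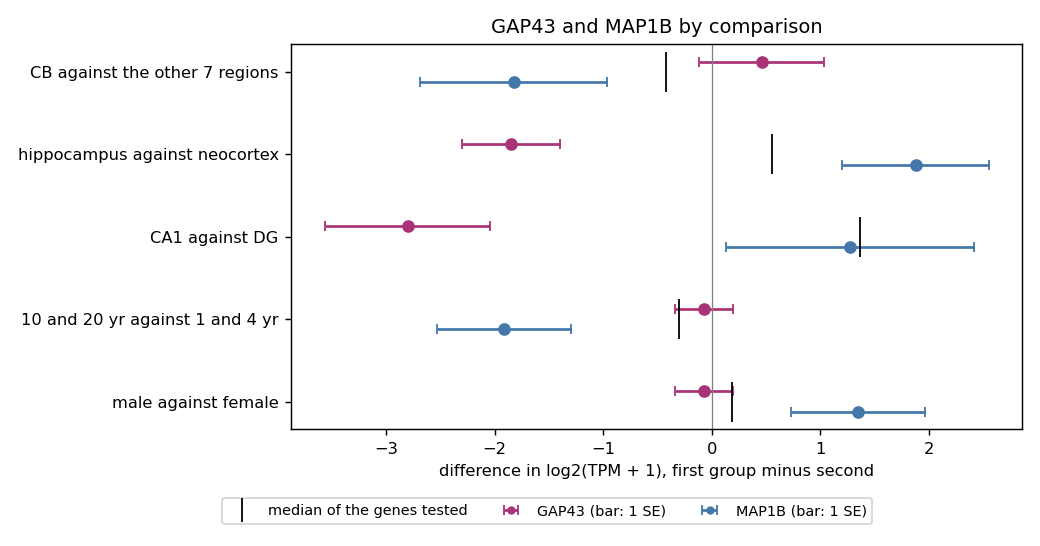
Difference in log2(TPM + 1), first group minus second (x axis), for GAP43 and MAP1B in 5 comparisons (y axis); bars are 1 SE and black ticks the median of the 6106 genes tested. GAP43 lies below the median of all genes in the hippocampal comparisons (−1.85 and −2.80), and MAP1B lies farthest below it in the age comparison (−1.92).

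Some markers of cell types were also called in the hippocampal comparisons. Of all genes tested, 8.21% were higher in hippocampus than in neocortex, and 18.6% higher in CA1 than in DG. Of 6 tested oligodendrocyte and myelin genes, 5 rose in hippocampus (CNP, MAL, MBP, MOBP and MOG), and the 9 listed markers summed to 736 to 8241 TPM there and to 49.2 to 7569 TPM in neocortex. In CA1 the sum was 5006 to 8241 TPM and in DG 736 to 4047 TPM, and 2 of 6 rose in CA1 against DG. Of 8 astrocyte genes 3 rose in hippocampus (ALDH1L1, GFAP and SLC1A2), with sums of 412 to 1784 TPM against 0 to 1013 TPM in neocortex. Of 8 glutamatergic genes 4 rose (CAMK2A, FEZF2, GRIA1 and NEUROD6), with sums of 45.4 to 1132 TPM against 7.89 to 1272 TPM. Of 6 genes of immature neurons 3 rose (NEUROD1, NNAT and SOX4). Of 10 GABAergic genes 1 rose (NPY), near the share of all genes, and of 4 microglial genes 0. Among the microglial genes 1, CSF1R, was higher in CA1 than in DG. Some of these called markers reached the filter of 8 libraries only with the group where they were high. They include MAL, FEZF2 and NPY in hippocampus, listed in 15, 17 and 12 libraries in all, and CSF1R in CA1, listed in 9. Their calls are therefore no independent support, and the other markers were not checked for this. The part of these markers in the values of GAP43 and MAP1B was not tested. In bulk tissue, fewer cells of a type and less RNA per cell cannot be told apart.

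With age, MAP1B had lower values in the older animals, but the difference did not pass across all genes. Means over the 8 regions were 542 (1F), 1175 (1M), 682 (4F) and 721 TPM (4M), against 466 (10F), 625 (10M), 302 (20F) and 611 TPM (20M). The groups overlapped. On animal-group means of log2(TPM + 1), the 10 and 20 yr groups were at −1.92 against the 1 and 4 yr groups, with an SE of 0.62 (limma, unadjusted p = 0.00227, adjusted p = 0.335), where the median of all genes was −0.30. On the linear scale, given without a test, the older groups had a mean of 501 TPM and the younger ones 780 TPM. The older mean was thus 64.2% of the younger one. All 4 libraries with MAP1B listed at 0 were older ones, PC 20F, PC 20M, TC 10F and CB 10F. These libraries listed 1105, 1903, 985 and 644 positions of all genes, against a median of 4026. Their part in the log2 value was not tested. The slope per doubling of age was −0.51 with an SE of 0.19 (limma, adjusted p = 0.347). With the number of positions as a covariate the difference was −0.97 (limma, adjusted p = 0.915). In this comparison 4 genes were lower, 0.0655% of those tested, and 1 was higher, 0.0164%, and the slope gave 4 and 1 as well, 0.0655% and 0.0164%. Neither member was among them.

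The lowest log2 values of MAP1B with age were in PC, PCC and CB, at −5.27, −3.68 and −2.73. In PC the libraries of 1 and 4 yr had 330 (1F), 306 (1M), 1130 (4F) and 1324 TPM (4M), and those of 10 and 20 yr had 169 (10F), 402 (10M), 0 (20F) and 0 TPM (20M). In PCC the younger libraries had 513, 4319, 1236 and 1071 TPM in the same order, and the older ones 13.6, 1720, 5.78 and 648 TPM. The older libraries included the lowest values in both regions, and the ranges overlapped. In CA1 the means were 1170 ± 200 TPM at 1 and 4 yr and 1407 ± 371 TPM at 10 and 20 yr (SD, n = 4 each). The log2 value was below 0 in 7 of 8 regions, and none of the 8 passed (exact permutation test, 4 against 4, smallest p the design allows 0.0286), with 0 also under an unadjusted p of 0.05. The age difference was −2.45 in neocortex and −0.16 in hippocampus, and the difference between them was −2.29 (exact permutation test, n = 4 against 4, p = 0.0286, adjusted p = 0.171 over 6 tests).

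GAP43 gave different pictures with age on the log and on the linear scale. On the log2(TPM + 1) scale the 10 and 20 yr groups were at −0.07 with an SE of 0.27 (limma, adjusted p = 0.960) and the slope at 0.047 (adjusted p = 0.911). Without PFC 1M, which was fitted from its region and animal group, the difference was −0.43. On the linear scale, a measure chosen after the values were seen and given without a test, means over the 8 regions were 6774 (1F), 6200 (1M), 6379 (4F) and 6974 TPM (4M), and 5808 (10F), 5776 (10M), 5103 (20F) and 5454 TPM (20M). The 4 older groups lay below all 4 younger ones, with 84.1% of their mean. Of the genes tested, 2.96% had older groups wholly below the younger ones on this measure. Without CA1 the groups overlapped (5748 to 6597 TPM against 6269 to 7731 TPM), and without CA1 and PFC 1M they did not (5748 to 6597 TPM against 7274 to 7731 TPM).

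In DG the younger GAP43 libraries had 7455 (1F), 5773 (1M), 6715 (4F) and 4266 TPM (4M), and the older ones 5289 (10F), 2111 (10M), 4297 (20F) and 1448 TPM (20M). The 2 lowest were older males, and the groups overlapped (log2 value −1.04, exact permutation test, n = 4 against 4, adjusted p = 0.610). The log2 value was below 0 in 7 of 8 regions. The exception was PFC, at 2.57, where 1M is a younger library. None of the 8 regions passed, and 0 were under an unadjusted p of 0.05 (exact permutation test). None of the 3 differences between region classes passed for GAP43 (exact permutation, adjusted p = 0.629 to 0.971).

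**Figure D5:**
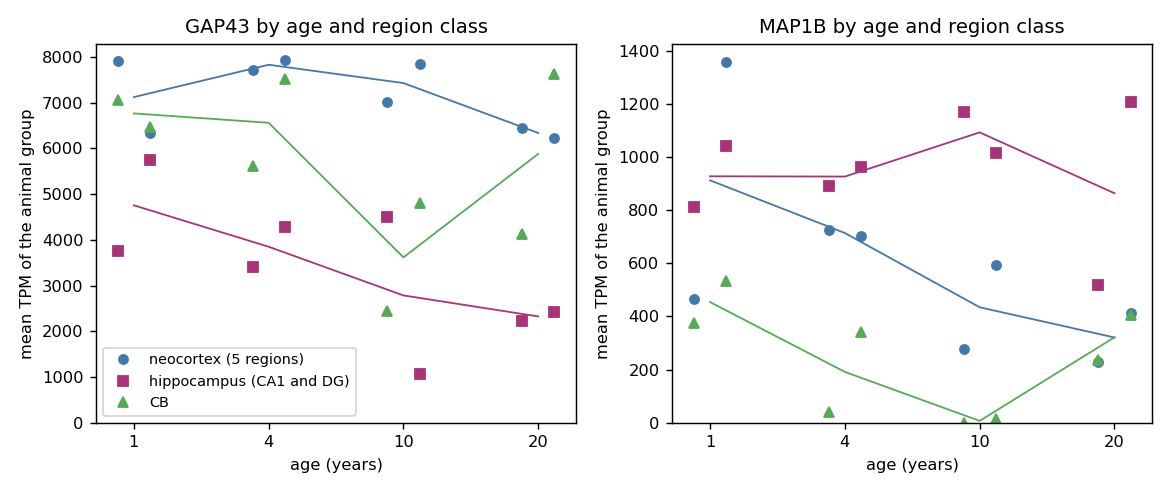
Mean TPM of GAP43 and MAP1B (y axis) in neocortex, hippocampus and CB at each age in years (x axis); each symbol is 1 animal group, female left and male right, and lines join the means of the 2 groups of an age. MAP1B in neocortex runs from 912 TPM at 1 yr to 321 TPM at 20 yr, and PFC 1M lowers GAP43 in the neocortex of 1M.

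Neither gene passed between the sexes. GAP43 was at −0.07 in males against females, with an SE of 0.27 (limma, adjusted p = 0.989), and MAP1B at 1.35 with an SE of 0.62 (limma, unadjusted p = 0.0303, adjusted p = 0.962). No gene was called in either direction (0% of those tested, limma), with 246 higher and 55 lower at an unadjusted p under 0.05. The median of all genes was 0.19.

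Other genes of axon growth and the axonal cytoskeleton were taken from 10 lists of 117 genes, of which 93 had a position and 70 were tested. In hippocampus 7 of 70 rose, 10.0%, and 1 fell, 1.43%, which was GAP43 itself. In CA1 against DG 14 rose, 20.0%, and 4 fell, 5.71%. Of all genes, 8.21% and 18.6% rose in these comparisons and 0.278% and 0.901% fell. In CB none rose and 2 fell, 2.86%, beside 1.05% of all genes. The filter on low values asked for 8 libraries. Some called genes reached it only with the libraries of the group where they were high. In hippocampus these were 4 of the 7 that rose (CNTN2, DCC, NCAM2 and UNC5C). In CA1 against DG they were 6 of the 14 that rose (ACTB, CNTN2, DCC, MAPRE2, PRKCA and UNC5C) and 1 of the 4 that fell (PPP3CB). In CB they were the 2 that fell, MAP1A and NRGN. In the age comparison none of the 70 was called. Of the 70, 12 had an unadjusted limma p under 0.05, 17.1% beside 8.97% of all genes, and 58 had values below 0, 82.9% beside 71.2% of all genes, with a median of −0.55 beside −0.30 for all genes. None was called for the age slope or for sex either, with 12 and 3 under an unadjusted limma p of 0.05.

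Among the relatives of GAP43, which share its binding of calmodulin or its phosphorylation by protein kinase C, 4 of 7 were tested and 3 of these are not GAP43. NRGN, the postsynaptic calmodulin-binding neurogranin, fell in CB, where it was listed at 0 in all 8 libraries, against a mean of 241 TPM elsewhere. MARCKS, an actin-binding kinase substrate, had 37.6 TPM in CB and 2.78 TPM elsewhere and did not pass (limma, adjusted p = 0.764). Of 5 calmodulin and protein kinase C genes, 2 rose in CA1 against DG. They were PRKCB, with 224 TPM in CA1 and 1.94 TPM in DG (log2 difference 6.90, SE 1.47, limma adjusted p = 0.000583), and PRKCA, with 11.1 TPM in CA1 and 0 in DG.

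Of 13 tested structural microtubule-associated proteins, the family of MAP1B, 2 rose in hippocampus. MAP2, the dendritic protein, had 128 TPM there and 43.2 TPM in neocortex (log2 difference 2.59, SE 0.86, limma adjusted p = 0.0414). MAPT, which encodes axonal tau, had 12.4 and 1.28 TPM (1.60, SE 0.49, adjusted p = 0.0280). MAP1A, the closest relative of MAP1B and an adult form, fell in CB, from 280 TPM elsewhere to 12.7 TPM (log2 difference −4.88, SE 1.04, limma adjusted p = 0.00137). Against DG, MAP4, MAP7D2 and MAPRE2 rose in CA1, with CA1 means of 9.86 to 22.7 TPM.

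The remaining lists had single genes that moved between CA1 and DG. STMN4, a stathmin that binds free tubulin, fell in CA1 from 964.5 to 156 TPM (log2 difference −2.61, SE 0.98, limma adjusted p = 0.0477). DPYSL4 of the collapsin response mediators fell too, from 27.4 to 1.54 TPM, as did PPP3CB, a calcineurin subunit, from 40.1 TPM to 0. Higher in CA1 were DCLK1, with 27.2 against 0.16 TPM, and the neurofilament gene NEFL, with 74.0 against 24.1 TPM. The kinase gene MAPK10 rose too, with 32.5 against 8.02 TPM. The actin gene ACTB and the actin regulator FSCN1 were also higher in CA1 and were listed at 0 in DG. ACTB was listed at 0 in all PFC, PCC, OC and CB libraries as well. None of the 6 tubulin genes passed in any of the 6 comparisons.

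Of 13 tested axonal adhesion and guidance receptors, 5 were called higher in hippocampus. NCAM1, a neural cell adhesion molecule, had 33.3 TPM in hippocampus and 11.3 TPM in neocortex (limma, adjusted p = 0.0210). NCAM2, the netrin receptors DCC and UNC5C, and the contactin CNTN2 also rose, with hippocampal means of 8.38 to 24.4 TPM, and CNTN2 was listed at 0 in all neocortical libraries. These 4 genes reached the filter only with the hippocampal libraries counted, and CNTN2 was listed in 8 libraries in all. In CA1 against DG, CNTN2, DCC, UNC5C and RTN4, which encodes the growth inhibitor Nogo, rose, with RTN4 at 80.0 against 2.82 TPM.

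The patterns of the members over the 64 libraries did not follow each other, with a Spearman rho of 0.0022 on log2(TPM + 1). The genes most like GAP43 were ARL6IP4 (rho = 0.46), ASPHD1 (0.45), ELOC (0.45), VPS72 (0.44) and ENSMMUG00000011173 (0.42). Those most like MAP1B were CAMK2A (rho = 0.56), ZKSCAN1 (0.54), ENSMMUG00000007665 (0.53), SNF8 (0.53) and MAP4K4 (0.53). The median over the genes tested was −0.13 for GAP43 and 0.15 for MAP1B. After the mean of each region was subtracted, the leading genes were WIZ for GAP43 (rho = 0.41) and SNRPB for MAP1B (rho = 0.56), with ENSMMUG00000005560, ENSMMUG00000004899 and ENSMMUG00000017629 also among the 5 highest for GAP43, and for MAP1B CYB5A, ENSMMUG00000003760, PPM1G and NFE2L1. These are descriptions over 64 libraries that share animals, tag depth and listing thresholds.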

How the data were processed

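CAGE tags were measured in 64 libraries of 8 regions, 4 ages and both sexes. Per the study's methods, the authors filtered reads, aligned them with TopHat2, kept unique reads, took the first base as the start site, kept sites of at least 0.5 TPM, joined those under 20 nt apart and assigned them to genes. The deposited values are tags scaled to 1000000 tags of the library (TPM, here the same as RPM) for each position and library, in MMUL 1.0 coordinates. They hold no counts. In the deposited values, 98.9 to 100% of those under 6 TPM were whole multiples of 1 tag within 0.011 TPM, which gave depths of about 1509000 to 6096000 tags. Gene symbols were given for 10069 of 13269 genes.

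Here positions were summed per gene, genes at 1 TPM or more in at least 8 libraries were kept (6106), and log2(TPM + 1) was fitted with limma 3.58.1 in R 4.3.3, which was tested on simulated data. A fold change on this scale understates that of low genes. Region models had the animal group as a block, since the regions of 1 age and sex came from the same animals, and this is where the pairing comes from. Age and sex were fitted on animal-group means. P-values were adjusted by Benjamini-Hochberg over all genes tested. Exact two-sided sign-flip and permutation tests, or 100000 resamples for F, served the members. No sample was left out except in the alternatives. The members and lists were chosen with earlier results of these data known. Named genes were the members, up to 4 genes of smallest p per list and comparison, and the 5 genes of highest Spearman rho. Some genes that this rule takes in are not reported here. Python 3.11.15 with NumPy 2.4.6, pandas 2.3.3 and SciPy 1.17.1 was used.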

Additional observations from a re-analysis of the deposited data

Results flagged for a closer look

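Of 48 sets of up to 8 libraries (TPM, number of positions and start share of each gene in each region), 14 had 1 library set apart from the others by more than Dixon's 95% value. The chance rate of about 1 in 20 holds for normally distributed values. It cannot be set against these 14, since 40 of 60 MAP1B start shares were 0. In TPM these were GAP43 in PFC 1M, at 3.04 TPM with the nearest library at 5114 TPM, and MAP1B in PCC 1M, at 4319 TPM with the nearest at 1720 TPM. In number of positions they were GAP43 in PC 10F, with 10 against at most 5, and MAP1B in DG 10M, with 13 against at most 7.

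In start share, GAP43 stood apart in PFC 1M at 0 (nearest 94.0%), PCC 10M at 92.4% (nearest 96.5%), DG 1F at 95.8% (nearest 99.9%) and CB 1F at 96.8% (nearest 99.7%). MAP1B stood apart in PCC 4F at 23.3%, PC 10F at 16.3%, OC 10M at 2.67% and DG 10M at 0.582%, where all other libraries of the region were at 0. In such a region any single value above 0 is set apart, whatever its size. It also stood apart in TC 20M at 33.5% (nearest 10.5%) and in CB 4F at 6.73% (nearest 0.766%).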

How the results depend on the processing

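For GAP43, hippocampus against neocortex was −1.70 under quantile normalization, −1.67 with the number of positions as a covariate, −0.45 without CA1 and −0.73 without CA1 and PFC 1M, none past the threshold, and −2.38 to −1.44 with single replicates left out, where it missed the threshold without 10M. CA1 against DG was −2.41 under the covariate, short of the threshold, and −3.38 to −2.25 with single replicates left out, where it missed without 1F. Without the replicate block, the values were the same and the adjusted limma p-values were 0.00418 and 0.00624, so that the pairing changed no call of either gene. CB against the other regions turned to −0.23 without CA1 and PFC 1M.

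The small GAP43 values for age and sex had no stable sign. The age difference was 0.30 on start positions and 0.29 in neocortex (−0.43 to 0.18 with single replicates left out). The slope was −0.052 under the covariate and −0.12 without CA1 and PFC 1M (−0.12 to 0.11). The sex difference was 0.24 under the covariate and 0.19 on start positions (−0.32 to 0.29). Between classes, hippocampus minus CB was 1.13 and neocortex minus hippocampus −0.17 on start positions (−1.01 to 0.66 and −0.080 to 1.65). MAP1B in neocortex minus CB ran from −0.84 to 1.53. MAP1B in CA1 against DG was −2.27 under the covariate and 4.08 on start positions.

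Region pairs passing fell to 0 for both genes with any replicate left out, where the smallest p that 7 animal groups allow is 0.0156 before adjustment, and without CA1, and to 0 for GAP43 on start positions. The start share of GAP43 between regions had F = 0.784 within 100 nt, 1.00 without CA1, 0.475 without CA1 and PFC 1M, and 1.82 to 5.34 with single replicates left out. Its age difference was −2.34 points at the main position and −0.169 without CA1 and PFC 1M. That of MAP1B was −0.045 within 100 nt (−0.70 to 1.01). The difference between the genes stayed at 89.6 to 91.8 points with single replicates left out. MAP1B positions between regions had F = 2.34 without CA1 and 2.18 without CA1 and PFC 1M. Causes were not tested.

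Genes called ranged from 39 to 194 for CB (113 as reported), 13 to 701 for hippocampus (518), 152 to 1862 for CA1 against DG (1188), 0 to 10 for age (5), 0 to 8 for the slope (5) and 0 to 1 for sex (0). A test on counts was not run, since the values are not counts. The settings that leave out CA1 or PFC 1M were chosen after the values were seen.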
